A study of Mus musculus with 6 samples.

Results

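The endoplasmic reticulum folds the proteins that a cell secretes or places in its membranes. The genes described here encode its chaperones, its disulfide isomerases, the sensors of unfolded protein and the machinery that removes proteins that fail to fold. The list holds 32 symbols, and rows of the count table were taken by symbol. Of these symbols, 31 were found among the 52459 in the table. Selk was not, and its current symbol Selenok, matched through RefSeq synonyms, is shown beside the others without being counted. The libraries came from whole brains of C57BL/6 mouse embryos at stage E14.5, sequenced as bulk RNA. There were 3 libraries of Mfsd7c-/- knockout embryos and 3 of wild-type embryos, with no treatment named in the labels. The labels state neither which part of Mfsd7c was deleted nor whether embryos of 1 genotype shared a litter.

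As background, the unfolded protein response has 3 sensors in the reticulum membrane. IRE1, encoded by Ern1, splices the Xbp1 mRNA in the cytosol so that it encodes an active transcription factor. PERK, encoded by Eif2ak3, phosphorylates the initiation factor eIF2-alpha, which slows translation in general and favours translation of ATF4. ATF6 is cut in the Golgi and releases a factor that, together with NF-Y, binds the endoplasmic reticulum stress response element (ERSE) in chaperone promoters. In many cell types, mRNAs of Hspa5, Herpud1, Sdf2l1, Dnajb9 and Creld2 rise when unfolded protein accumulates, so the list is widely read as a measure of that state. The counts give 1 number per gene, so spliced and unspliced Xbp1 were not separated here, and cleavage or phosphorylation of the sensors is not measured by RNA.

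The ERSE is shown first because several of these genes share it. It is a known element of chaperone promoters, so its presence in a list of chaperone genes is no independent result. RefSeq promoter windows on GRCm38.p6, from 250 bases before to 50 after each gene's start, were present for 27 of the 31 genes and for Selenok, 29 windows in all with 2 for Derl2. No window was in the table used here for Atf6, Manf, Hyou1 and Derl1. The windows were searched on both strands for the ERSE, spelled CCAAT, then 9 bases of any kind, then CCACG. Capitals mark CCAAT and CCACG, each sequence is read 5′ to 3′ on the strand that carries the element, and 5 flanking bases are kept on each side.
Hspa5, chr2:34772020-34772048, plus strand: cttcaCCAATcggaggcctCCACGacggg
Hsp90b1, chr10:86705633-86705661, minus strand: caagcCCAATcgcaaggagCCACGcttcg
Hsp90b1, chr10:86705528-86705556, plus strand: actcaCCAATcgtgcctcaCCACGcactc
Calr, chr8:84847070-84847098, plus strand: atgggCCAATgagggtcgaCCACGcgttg
Canx, chr11:50325795-50325823, minus strand: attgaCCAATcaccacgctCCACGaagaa
Pdia6, chr12:17266486-17266514, plus strand: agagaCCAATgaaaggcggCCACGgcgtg
Dnajc3, chr14:118937822-118937850, plus strand: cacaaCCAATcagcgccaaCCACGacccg
Creld2, chr15:88819515-88819543, minus strand: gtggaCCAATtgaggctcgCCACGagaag
Syvn1, chr19:6046527-6046555, plus strand: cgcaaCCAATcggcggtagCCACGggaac
Derl3, chr10:75893237-75893265, minus strand: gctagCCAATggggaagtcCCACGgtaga

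The ERSE letters were in 9 of the 29 windows, 31% of them, against 0.119% of all 32851 windows in the table. A related arrangement, ERSE-II with ATTGG, 1 base of any kind and CCACG, was in 2 windows, 6.9%, against 0.0365% of all windows. Dnajb11 carries 1 of them, which reaches past the gene's start and is not printed. Herpud1 carries the other, printed here with its fixed letters in capitals.
Herpud1, chr8:94386372-94386392, plus strand: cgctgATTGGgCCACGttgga
The letters TGACGTGG, a core of the unfolded protein response element, were in 0 of the 29 windows and in 0.676% of all windows. TGATGNAAT, the form of the element bound by ATF4 with a C/EBP partner, was also in 0 of the 29 and in 0.965% of all. ACGTG, the core of the hypoxia response element, was in 10 windows, 34.5%, against 19.6% of all, and read on either strand it can share bases with CCACG. A match is a run of letters and does not show binding. The Hspa5 ERSE lies before the RefSeq start but inside the GENCODE gene, which begins at chr2:34771970. Hsp90b1 carried 2 ERSE copies, 1 on each strand, and its sequence is given as the fullest example. The stretch is chr10:86705510-86705694 on the minus strand, and it stops where the GENCODE gene begins. Capitals mark CCAAT and CCACG or, for the copy on the opposite strand, CGTGG and ATTGG.
Hsp90b1: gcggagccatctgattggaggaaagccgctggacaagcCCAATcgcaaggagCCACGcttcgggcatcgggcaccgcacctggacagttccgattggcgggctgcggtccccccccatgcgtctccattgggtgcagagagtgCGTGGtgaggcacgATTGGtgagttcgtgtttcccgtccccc

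The libraries summed to 43784619 to 50549673 counts. Mfsd7c, the targeted gene, a transporter also known as Flvcr2, had 119, 129 and 130 counts in knockout and 206, 291 and 259 counts in wild-type replicates, with no overlap. Its log2 fold change was -0.96 (SE 0.147, edgeR adjusted p = 0.0271). The log2 value stayed between -1.06 and -0.79 in the 12 alternative fits, but the call was lost without any 1 of the knockout libraries (adjusted p = 0.121, 0.109 and 0.189), without wild-type replicate 2 (0.184) or 3 (0.149), and without both of these (0.381). Where in the gene the remaining counts lie is not given by a table with 1 count per gene.

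All 31 genes had reads in each library. To compare levels between genes, counts scaled to library size with TMM factors (CPM) were divided by the summed exon length in GENCODE M21 on GRCm38, giving RPKM. Calr, the lectin chaperone calreticulin, was the most abundant at 160.4 ± 3.68 RPKM (SD, n = 3) in wild-type and 159.5 ± 5.25 RPKM (SD, n = 3) in knockout brains. Pdia3, the isomerase that works with calreticulin and calnexin, followed at 92.3 ± 4.85 RPKM (SD, n = 3) in wild-type brains. Hspa5, which encodes the main luminal Hsp70 chaperone BiP, was at 83.3 ± 6.35 RPKM (SD, n = 3), Hsp90b1 at 78.3 ± 1.52 and Canx at 72.2 ± 0.796. The neighbours Hspa5 and Hsp90b1 did not differ in level beyond the spread of the wild-type libraries, and Calr stood above all the others in every library. At the low end were the sensor gene Ern1 at 2.85 ± 0.262 RPKM (SD, n = 3) and Derl3 at 0.502 ± 0.0720 RPKM (SD, n = 3). Derl3, a derlin found mainly in secretory tissues, was the 1 scarce gene of the list, with 40 to 58 counts in a library.

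**Figure D1:**
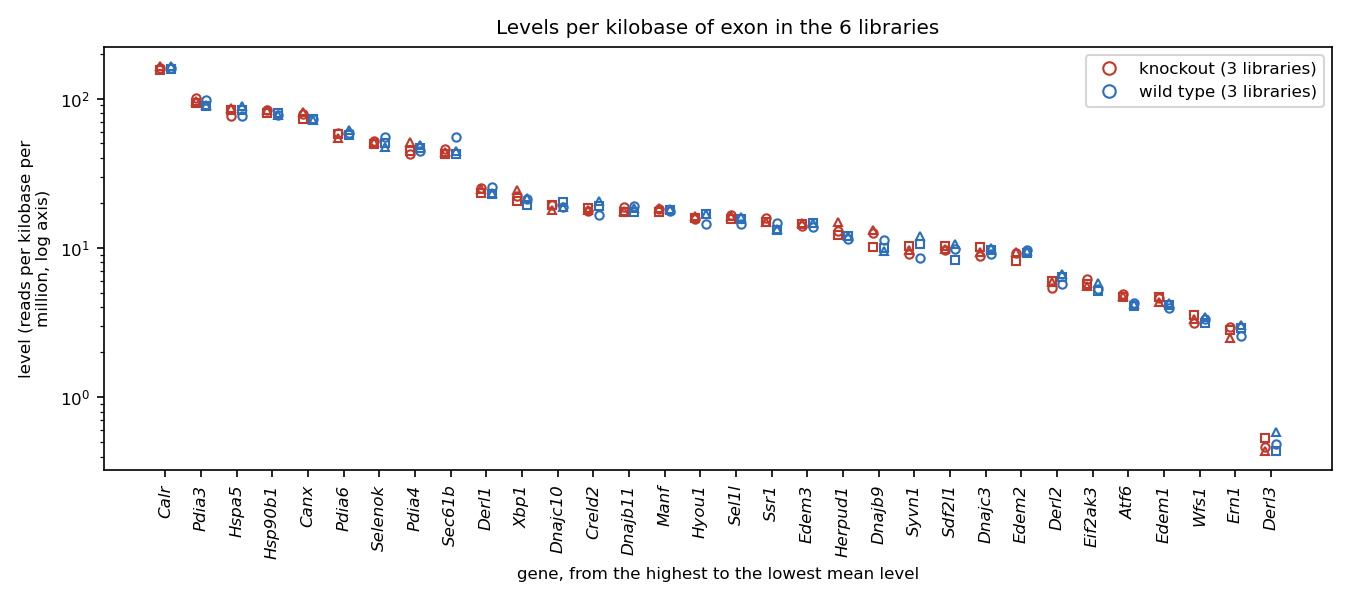
Level of each gene in RPKM (log axis) in the 3 knockout (red) and 3 wild-type (blue) libraries, ordered by the mean over all 6. Symbols for the replicates nearly coincide for most genes, from Calr at about 160.4 to Derl3 at 0.502 RPKM in wild-type brains.

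No gene of the list passed the test of knockout against wild-type. In the edgeR quasi-likelihood test over 19565 genes, adjusted by Benjamini-Hochberg with calls at an FDR under 0.05, 0 of 31 were higher and 0 were lower. Over all genes tested 0.624% were called higher and 0.0358% lower. The lowest adjusted p on the list was 0.404, for Atf6. Unadjusted, 2 of 31 had a p under 0.05 (6.45%), against 8.09% of all genes tested. DESeq2 called 0 of 31 as well, where it called 1.5% of all genes (1.22% higher in knockout). The authors' deposited table holds the same DESeq2 comparison, with 308 of 20564 genes called in both, so it is no separate result. The lowest adjusted p among the 31 was 0.352 there. In bulk tissue fewer cells of a type and less RNA per cell cannot be told apart, so these values describe the tissue of each library as a whole. That tissue was not uniform, since the epidermal and Hox markers given below differed between libraries.

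The intervals show how large a difference these libraries leave room for. Of the 31 genes, 15 had a log2 fold change above 0 and 16 below 0, with a median of -0.002 against -0.01 over all genes tested. The values ran from -0.11 for Derl2 to 0.22 for Dnajb9. For 30 of the 31 genes the 95% interval of the fold change lay within 1.5-fold in either direction, a log2 value of 0.585, against 63.5% of all genes tested. Derl3 was the exception, with an interval from -0.585 to 0.455 that ends at that bound. For 25 genes it lay within a log2 value of 0.322, against 39.7% of all. Narrow intervals were usual among abundant genes, since 94% of the 11406 tested genes with a mean log2 CPM of at least 3 were within 1.5-fold too, and 30 of the 31 listed genes are that abundant. The median absolute log2 fold change was 0.065 on the list and 0.072 over those abundant genes. The count of 30 within 1.5-fold was the same in each of the 12 alternative fits, which included leaving out every library in turn, and Derl3 was the gene outside in each. In those fits 0 of 31 genes passed, where 0.0968% to 2.31% of all genes were called.

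**Figure D2:**
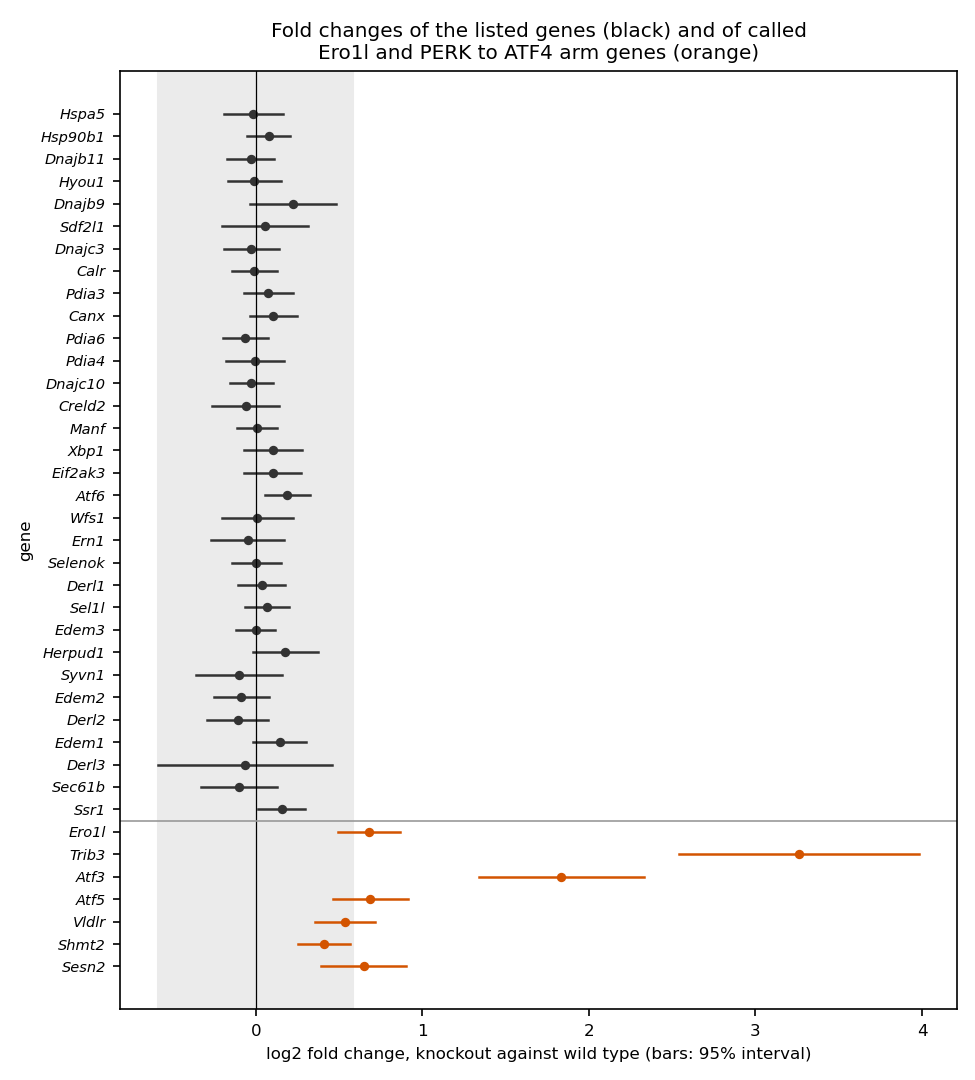
Log2 fold change of knockout against wild-type with its 95% interval for the listed genes and Selenok (black) and for Ero1l and the 6 called genes of the PERK to ATF4 arm (orange). The grey band is 1.5-fold in either direction, and of the listed genes only Derl3, from -0.585 to 0.455, reaches its edge.

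Among the chaperones, Hspa5 (GRCm38, chr2:34771970-34777547) is the gene most often read as a sign of unfolded protein. Its CPM were 324, 356 and 366 in knockout replicates 1, 2 and 3, against 325, 354 and 378 in the wild-type replicates. The groups covered the same range, with replicate 1 lowest in both. In log2 terms the difference was -0.016 (SE 0.0779, 95% interval -0.193 to 0.162, edgeR adjusted p = 0.977). Hsp90b1, which encodes GRP94, the Hsp90 of the reticulum, was at 338, 323 and 338 CPM in knockout and 312, 323 and 312 CPM in wild-type libraries. Its log2 fold change was 0.076 (SE 0.0561), and knockout replicate 2 lay level with wild-type replicate 2. Hyou1, a large Hsp70-like exchange factor for BiP, differed by a log2 value of -0.0086 (SE 0.0688).

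The J-domain partners of BiP also overlapped between the groups. Dnajb9, an inhibitor of IRE1 and a target of spliced Xbp1, had the highest fold change on the list with all libraries. In CPM it had 32.3, 25.7 and 33.6 in knockout replicates 1, 2 and 3, against 28.8, 25.6 and 24.1 in the wild-type replicates. Knockout replicates 1 and 3 were above all wild-type libraries and knockout replicate 2 was among them. The log2 fold change was 0.22 (SE 0.114, 95% interval -0.038 to 0.481, edgeR adjusted p = 0.681). Leaving out knockout replicate 2 gave 0.33, leaving out knockout replicate 3 gave 0.15, and leaving out wild-type replicates 2 and 3 gave 0.086. Herpud1 or Atf6 was highest in 4 of the 12 alternatives. Dnajb11, a co-chaperone for unfolded clients, had a log2 fold change of -0.030, and Dnajc3, which encodes the co-chaperone p58IPK, had -0.027. Sdf2l1, a partner of Dnajb11 that is strongly induced by reticulum stress in many cells, was at 10.8, 11.4 and 10.8 CPM in knockout and 10.9, 9.21 and 11.7 CPM in wild-type libraries. The 3 knockout values of Sdf2l1 fell inside the wild-type range.

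Lectin chaperones hold glycoproteins while disulfide isomerases form and rearrange their bonds. Calr was at 460, 444 and 474 CPM in knockout and 459, 454 and 474 CPM in wild-type libraries, with a log2 fold change of -0.0085 (SE 0.0592). Canx, the membrane-bound relative calnexin, was at 370, 343 and 380 CPM in knockout and at 341, 341 and 334 CPM in wild-type libraries. Every knockout value of Canx was above every wild-type value, knockout replicate 2 by a small margin. Its log2 fold change of 0.11 (SE 0.0615) did not pass (edgeR adjusted p = 0.719). The isomerases Pdia3, Pdia4 and Pdia6 had log2 fold changes of 0.076, -0.0058 and -0.065. Dnajc10, a reductase that helps to prepare proteins for degradation, had -0.029. Manf and Creld2, small proteins of the lumen that stressed cells can secrete, had 0.0084 and -0.062. Manf was the steadiest gene of the list, at 61.4 to 65.2 CPM over the 6 libraries, a highest value 1.06 times the lowest.

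Wfs1 was grouped with the sensors and Xbp1. Of these 5 genes, 4 had a log2 fold change above 0, with a median of 0.10, and 0 passed. Atf6 (GRCm38, chr1:170704674-170867771) had the lowest p of the list. Knockout replicates 1, 2 and 3 gave it 45.4, 43.2 and 44.0 CPM, and wild-type replicates 39.6, 37.9 and 38.9 CPM. The groups did not overlap and were parted by more than the spread within either. The log2 fold change was 0.19 (SE 0.0596, 95% interval 0.052 to 0.324), a mean of 13.9% more in knockout, with an unadjusted p of 0.0124 and an adjusted p of 0.404 in edgeR. Eif2ak3 (PERK) was at 37.1, 34.5 and 33.6 CPM in knockout and 32.0, 31.0 and 35.1 CPM in wild-type libraries, a log2 difference of 0.10 (SE 0.0751). Ern1 (IRE1) differed by -0.048 on the log2 scale (SE 0.0963), with group means of 22.5 CPM in knockout and 23.2 CPM in wild-type libraries. Xbp1 was at 71.8, 67.0 and 79.4 CPM in knockout and 69.3, 63.0 and 70.5 CPM in wild-type libraries, overlapping, with a log2 fold change of 0.11 (SE 0.0762). Removal of knockout replicate 2 gave 0.16, removal of knockout replicate 3 gave 0.038, and removal of wild-type replicate 2 gave 0.057. Wfs1, which encodes wolframin, a reticulum membrane protein that restrains ATF6, had a log2 fold change of 0.0091 (SE 0.0929).

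Degradation genes gave 0 higher and 0 lower calls. Of the 9 counted, 4 had a log2 fold change above 0 and 5 below 0, with a median of -0.002. Herpud1, a scaffold of the degradation complex and another common sign of reticulum stress, was at 30.4, 28.6 and 34.9 CPM in knockout and 26.9, 28.1 and 28.0 CPM in wild-type libraries. The groups did not overlap, but knockout replicate 2 was close to the wild-type values, and its log2 difference of 0.18 (SE 0.0846) did not pass in edgeR (adjusted p = 0.647). Without knockout replicate 3 that difference was 0.094. Edem1, a mannose-trimming factor that marks glycoproteins for removal, was at 29.8, 30.4 and 27.9 CPM in knockout and 25.4, 26.6 and 27.8 CPM in wild-type libraries. Its groups did not overlap either, and the log2 difference was 0.14 (SE 0.0704, adjusted p = 0.662 in edgeR). Its relatives Edem2 and Edem3 had -0.089 and -0.0019. The derlins Derl1 and Derl2, membrane channel components, had 0.034 and -0.11, and Derl3 had -0.065. Sel1l, the adaptor of the ubiquitin ligase, had 0.065 (SE 0.0580). Selenok, the selenoprotein listed as Selk, had 0.0035 (SE 0.0643).

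The translocon genes pointed in opposite directions. Ssr1, a subunit of the translocon-associated protein complex, was at 166, 155 and 156 CPM in knockout and 153, 137 and 139 CPM in wild-type libraries. The groups did not overlap, and wild-type replicate 1 came nearest to the knockout values. The log2 fold change was 0.16 (SE 0.0622), with an unadjusted p of 0.0350 and an adjusted p of 0.559 in edgeR. Sec61b, a subunit of the Sec61 channel, differed by -0.10 on the log2 scale (SE 0.1). It was at 58.8, 54.2 and 56.2 CPM in knockout and at 70.7, 54.0 and 56.7 CPM in wild-type libraries, so that only wild-type replicate 1 stood apart.

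Groups did not overlap for 5 genes in all, namely Atf6, Ssr1, Canx, Herpud1 and Edem1, each with the knockout libraries higher. That is 16.1% of the list, against 7.84% of all genes tested in that direction and 14.4% in either direction. No gene had every knockout value below every wild-type value, a pattern that 6.58% of all genes tested showed.

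The gene with the widest log2 range among wild-type libraries was Syvn1, which encodes HRD1, the ubiquitin ligase that marks misfolded proteins. Values were 44.4, 49.8 and 47.4 CPM in knockout, then 41.9, 51.8 and 58.0 CPM in the wild-type replicates 1, 2 and 3. Wild-type libraries held both the lowest and the highest value, a log2 range of 0.471, and the log2 fold change was -0.10 (SE 0.113). Derl2 ran from 43.4 to 48.6 CPM in knockout and from 45.9 to 53.7 CPM in wild-type libraries. Hyou1 and Creld2 were lowest in wild-type replicate 1, at 105 and 22.8 CPM, and highest in wild-type replicate 3, at 122 and 28.1 CPM. Summed over the list, the genes took 3409 to 3544 CPM in knockout and 3371 to 3477 CPM in wild-type libraries, and these ranges overlapped.

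**Figure D3:**
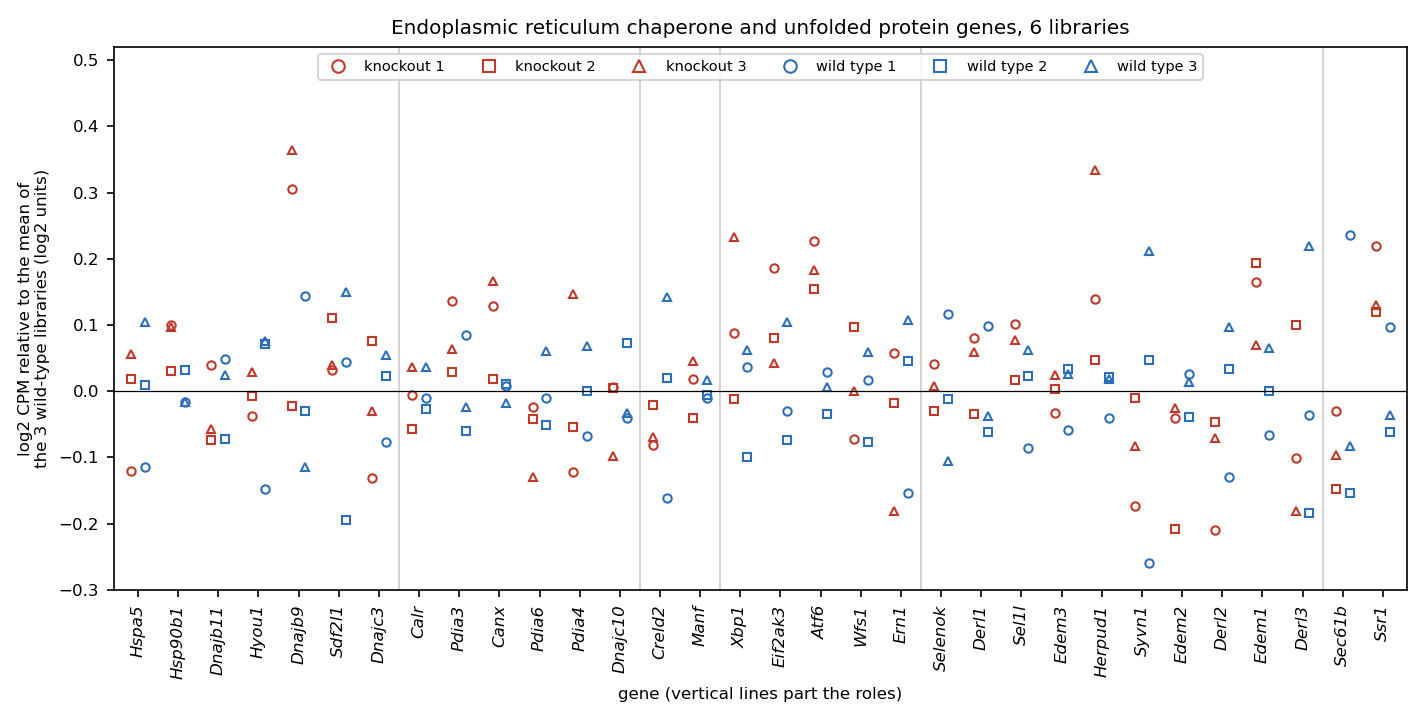
Log2 CPM of each gene in each library relative to the mean of the 3 wild-type libraries, with knockout in red and wild-type in blue and a symbol for each replicate. The red and blue symbols overlap for all but Atf6, Ssr1, Canx, Herpud1 and Edem1, and wild-type replicates spread widely for Syvn1.

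Some of these library differences ran alongside other tissue markers, whose part in them was not tested. Of 8 epidermal markers 0 passed, and their summed level was 29.6 to 505 CPM in knockout and 23.7 to 429 CPM in wild-type libraries, highest in replicate 1 of both groups. Of 10 Hox genes of hindbrain and spinal cord 0 of the 6 tested passed, and their sum was 134 and 39.4 CPM in wild-type replicates 2 and 3 against at most 3.86 CPM in the other libraries. Of 7 markers of fibroblasts, cells that secrete much collagen, 0 passed, with 1021 to 1271 CPM in knockout and 876 to 1723 CPM in wild-type libraries, highest in wild-type replicate 1. The highest Sec61b and the lowest Syvn1 value were in that same library. Without both replicates 1, the libraries high in epidermal markers, 0 of 31 genes passed and the log2 fold change of Syvn1 was -0.18. Without wild-type replicates 2 and 3 it was also 0 of 31, Syvn1 was at 0.18 and Sec61b at -0.32. The neuron list summed to 5931 to 6939 CPM and the radial glia list to 1752 to 1835 CPM over the 6 libraries, with 0 genes called in either. Some markers of vessel walls were called too, and their part in the values of the 31 genes was not tested. Over all genes tested 0.624% were called higher and 0.0358% lower. The pericyte list summed to 118 to 127 CPM in knockout and 176 to 198 CPM in wild-type libraries, with 1 of 5 genes called lower. Most of that gap was Rgs5, at 36.8 to 43.6 CPM in knockout and 84.3 to 105 CPM in wild-type libraries. Abcc9 was also lower without overlap, at 21.07 to 22.74 CPM in knockout and 25.95 to 27.26 CPM in wild-type libraries. Pdgfrb, Kcnj8 and Cspg4 overlapped between the groups. The endothelial list summed to 262 to 289 CPM in knockout and 219 to 264 CPM in wild-type libraries. These sums overlapped, with 2 of 6 genes called higher and 1 lower. Pecam1 (59.3 to 70.22 CPM in knockout, 29.92 to 33.93 in wild-type libraries) and Emcn (12.36 to 13.15, 6.403 to 8.076) were higher without overlap. Cldn5 (44.78 to 46.96, 63.3 to 67.85) and Tek (12.98 to 14.14, 15.94 to 20.95) were lower without overlap. Cdh5 and Kdr overlapped between the groups. The erythroid list summed to 3405, 1699 and 3446 CPM in knockout and 2373, 1115 and 1189 CPM in wild-type replicates, with 0 of 8 called. The choroid plexus list, markers of a secretory epithelium, ran from 667 to 1401 CPM in knockout and from 1009 to 1138 CPM in wild-type libraries, with 0 of 6 called. No marker of the 12 lists was at 0 in all 6 libraries.

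Other genes of the reticulum were described by lists in the same way. Among 37 further genes for folding, oxidation and glycan control, 1 rose and 0 fell, with a median log2 fold change of 0.030. The 1 was Ero1l, the oxidase that reoxidises disulfide isomerases and is also induced by low oxygen. It was at 45.2, 44.5 and 50.4 CPM in knockout and 27.1, 28.9 and 31.4 CPM in wild-type libraries, with no overlap. Its log2 fold change was 0.68 (SE 0.0813, edgeR adjusted p = 0.00913). The call was lost without knockout replicate 3 (adjusted p = 0.0677), on removal of wild-type replicate 2 (0.0711) and on removal of both wild-type replicates 2 and 3 (0.0521), at log2 values of 0.62, 0.68 and 0.79. P4hb, the classical disulfide isomerase, had 0.22 (SE 0.0814, edgeR adjusted p = 0.517), and Fkbp10 and Erp44 had 0.32 and 0.19 without passing. The list had 3 genes called higher instead of 1 without wild-type replicate 1, where 1.16% of all genes were called higher, and also without both replicates 1. Fkbp10, a collagen prolyl isomerase, was among them, at log2 values of 0.40 (adjusted p = 0.0383) and 0.45 (0.0138).

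Of 27 further degradation genes, 0 rose and 0 fell, with a median of 0.006. Low p-values there belonged to Rnf5 at -0.15, March6 at 0.13 and Fam8a1 at 0.13 on the log2 scale. Of 34 genes of the translocon, signal peptidase and oligosaccharyltransferase, 0 passed, but 8 had an unadjusted p under 0.05, 23.5% against 8.09% of all genes tested. They were led by Sec63, a translocon partner that recruits BiP, at 137, 136 and 135 CPM in knockout and 109, 118 and 118 CPM in wild-type libraries. Its log2 fold change was 0.24 (SE 0.0525, edgeR adjusted p = 0.139), and Magt1, Stt3a and Spcs3 had 0.22, 0.23 and 0.18. DESeq2 called 1 gene of that list, Sec63. Of 21 other sensors, proteases and factors of the response 0 passed, with Wipi1 at 0.38, Creb3l2 at 0.25, Mbtps2 at 0.12 and the scarce Creb3l3 at -0.66. For Wipi1 the edgeR adjusted p was 0.157, but it was called higher in DESeq2 (adjusted p = 0.0170), without wild-type replicate 1 (0.0373) and without both replicates 1 (0.0373).

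Chaperones of other compartments did not pass. Of 26 cytosolic chaperone genes 0 rose and 0 fell, 0 had an unadjusted p under 0.05, and the median log2 fold change was -0.004. Hsp90ab1, the abundant cytosolic Hsp90, had 0.20, Hsph1 -0.13, the heat shock factor Hsf1 -0.21 and the inducible Hspa1a 0.56 with an interval from -0.139 to 1.256. DESeq2 called 0 of these. Without wild-type replicate 1, Hsf1 was called lower at -0.33 (adjusted p = 0.0385), where 0.773% of all genes were called lower. Of 14 mitochondrial chaperones and proteases 0 passed, with 1 unadjusted p under 0.05 and a median of -0.016. Hspa9, the mitochondrial Hsp70, had 0.18, Spg7 -0.15, Lonp1 0.068 and Htra2 -0.10.

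The PERK to ATF4 arm works through translation of ATF4. The list given this name is wider than PERK and its targets, as it also holds Eif2s1, Eif2ak1, Eif2ak2 and Eif2ak4. The list was drawn up with earlier results of these data known, so the shares that follow describe it and are no test. Of its 30 genes 6 rose and 0 fell, against 0.624% of all genes tested called higher and 0.0358% lower. Unadjusted, 18 had a p under 0.05, against 8.09% of all, and the median log2 fold change was 0.31. Trib3, a pseudokinase induced by ATF4 and CHOP, was at 4.20, 2.33 and 4.67 CPM in knockout and 0.383, 0.458 and 0.319 CPM in wild-type libraries. Its log2 fold change was 3.26 (SE 0.316, edgeR adjusted p = 0.00299). Atf3, a stress-induced transcription factor, rose by a log2 value of 1.84 (SE 0.217), and Atf5, a relative of ATF4, by 0.69 (SE 0.0982). Sesn2, Vldlr and Shmt2 rose by 0.65, 0.54 and 0.41. Atf4 itself was at a log2 fold change of 0.18 and Ddit3, which encodes CHOP, at 0.19, neither past the test. ATF4 is also activated by kinases other than PERK, and several genes of this arm respond to low oxygen or to amino acid supply. The 6 became 1 without wild-type replicate 2, where 0.165% of all genes were called higher, 2 without knockout replicate 1 (0.24%) or wild-type replicate 3 (0.2%), and 3 without knockout replicate 3 (0.189%). Without wild-type replicates 2 and 3 it was 0 (0.0774%), without both replicates 1 it was 10 (1.34%), and DESeq2 called 11 (1.22%). Trib3 was not called without wild-type replicates 2 and 3 (adjusted p = 0.105). Whether this arm differs from the 31 genes as a list was not tested.

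**Figure D4:**
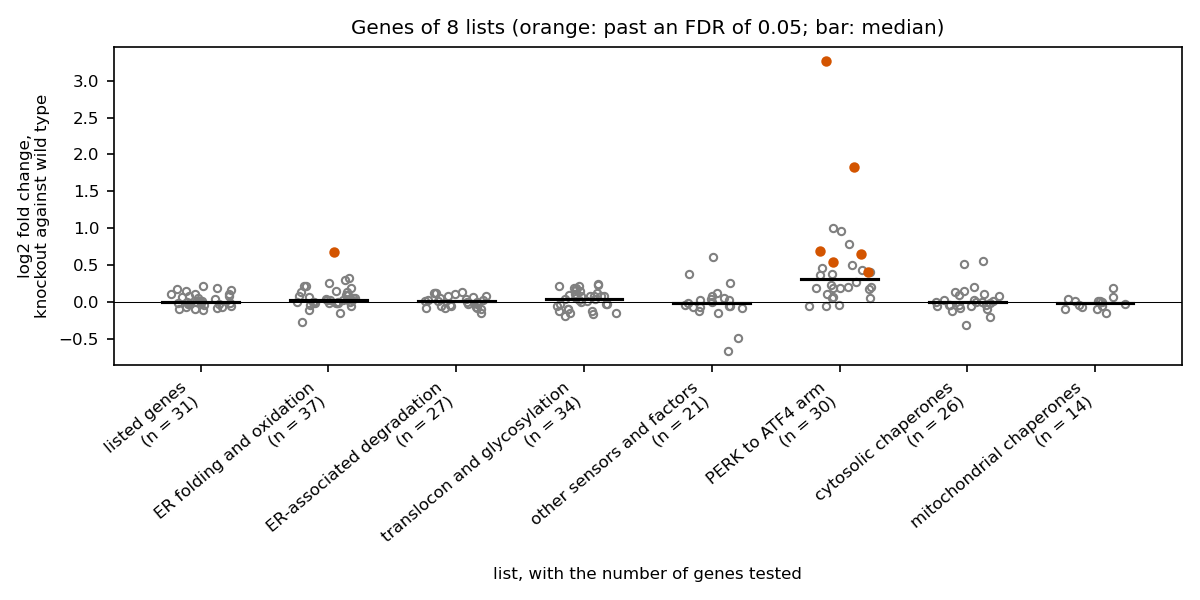
Log2 fold change of knockout against wild-type for each tested gene of the 31 and of the 7 other lists, with genes past an FDR of 0.05 in orange and list medians as bars. Medians lie near 0 except for the PERK to ATF4 arm, at 0.31 with 6 called genes. The lists were chosen with earlier results of these data known.

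Within the 31, the 11 genes that carry an ERSE or ERSE-II had log2 fold changes from -0.10 to 0.18 with a median of -0.027, 3 above 0 and 8 below. The 16 whose windows hold neither had -0.11 to 0.22 with a median of 0.032, 9 above 0 and 7 below. In the windows of the PERK to ATF4 arm the ERSE letters were in 0 of 30, and TGATGNAAT was in 3, those of Aars, Gars and Nupr1.

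No source used here states the strand setting of the counting. By GENCODE exons, Derl2 shares 231 bases with Mis12 on the opposite strand, Hsp90b1 shares 415 with 1810014B01Rik and Syvn1 shares 91 with Mrpl49. Depending on the settings, counts of Derl2, Hsp90b1 and Syvn1 could hold reads of these neighbours or lack reads of the shared bases. The mean levels of those neighbours were 36.7, 5.98 and 37.8 CPM.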

How the data were processed

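Whole brains of knockout and wild-type embryos were profiled by RNA sequencing in 3 libraries each, and groups and replicates were taken from the sample titles. The deposited counts are whole, unnormalized numbers of reads per gene symbol, as their values show. The submitters' processing notes name DESeq2 1.12.4, featureCounts and STAR 2.5.2a, and the builds mm10 and hg19, without roles. The authors' table gives, per the file headers, the signal averaged over libraries, fold changes as log2, a Wald score and p-values.

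edgeR 4.0.16 was used, where filterByExpr kept 19565 of 52459 symbols. Counts were scaled by TMM and tested with the robust quasi-likelihood test, with Benjamini-Hochberg adjustment over all genes kept. The SE is the absolute log2 fold change over the square root of F, and 95% intervals use the t distribution with the test's degrees of freedom. The procedure was tested on simulated counts, with 50 abundant genes changed by each fold. It called 16% of those changed 1.25-fold, 76% at 1.5-fold and 98% at 2-fold, so most changes of 1.25-fold were missed. Of all calls there, 7.05% were of genes without a set change. The common biological coefficient of variation was 15.3%. Nothing in the labels says that replicates came from separate litters, so p-values measure only the spread between these samples, which may be technical.

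Alternatives were DESeq2 size factors, no low-count filter, DESeq2 1.42.0, a replicate block, each library left out, and 2 pairs of libraries left out. The genes and lists, and these pairs, were chosen with earlier results of these data known. All 31 genes are named, with the target, the 4 lowest p-values of each other list and any further called gene (1 gene is not reported here), and Atf4, Ddit3, Aars, Gars and Nupr1 were added after their values were seen. Every 2 libraries differed by more than sampling noise. An inner stretch of the last 50 bases of each promoter window was searched for in GENCODE transcripts of the gene. It was found for 25 of 29 windows, which places them on the gene's strand. It was not found for Pdia4, Xbp1, Dnajc3 and Derl3, and of these Dnajc3 and Derl3 carry a printed ERSE.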

Additional observations from a re-analysis of the deposited data

How the results depend on the processing

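No gene of the 31 passed in any of the 12 alternatives, each of which gave 0 higher and 0 lower, and 30 intervals lay within 1.5-fold in each. The lowest adjusted p on the list over all alternatives was 0.0792, for Ssr1 without wild-type replicate 1. Over all genes, against 122 higher and 7 lower, the counts were 190 and 21 with no low-count filter, 250 and 58 in the DESeq2 Wald test, 265 and 194 without both replicates 1, and 16 and 4 without wild-type replicates 2 and 3, where the 1 wild-type library left was assumed to vary like the knockout ones. Single libraries left out gave 33 to 233 higher and 3 to 155 lower. Signs of small values turned for 18 of the 31, none above 0.11 in size. Without wild-type replicates 2 and 3 the log2 values were 0.11 for Hspa5, 0.0065 for Calr, -0.0033 for Pdia3, 0.067 for Pdia4, 0.11 for Ern1, 0.055 for Dnajc3, 0.017 for Dnajc10, 0.18 for Syvn1, 0.062 for Edem3, 0.11 for Creld2, 0.15 for Hyou1, -0.059 for Derl1, 0.027 for Derl2, -0.002 for Wfs1, -0.11 for Selenok, 0.077 for Hsf1 and 0.032 for Spg7. With no low-count filter Pdia4 was 0.0022 and Edem3 0.0061, in DESeq2 Edem3 was 0.0019, and without both replicates 1 Pdia4 was 0.018 and Manf -0.0005. Without single libraries the ranges were -0.031 to 0.018 for Calr, -0.14 to 0.012 for Creld2, -0.15 to 0.055 for Derl3, -0.048 to 0.0092 for Dnajc10, -0.079 to 0.023 for Dnajc3, -0.030 to 0.015 for Edem3, -0.12 to 0.016 for Ern1, -0.070 to 0.040 for Hspa5, -0.078 to 0.030 for Hyou1, -0.010 to 0.034 for Manf, -0.088 to 0.050 for Pdia4, -0.037 to 0.13 for Sdf2l1, -0.18 to 0.027 for Sec61b, -0.046 to 0.065 for Selenok, -0.22 to 0.011 for Syvn1 and -0.035 to 0.049 for Wfs1. The causes were not tested.

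With the replicate block, 212 genes were called higher and 70 lower, with 0 of the 31 in either direction. Whether replicate numbers pair the samples is not given by the labels, and deviations from the group means correlated at 0.587 for number 1, 0.31 for number 2 and 0.0337 for number 3. Knockout replicate 2 correlated better with wild-type replicate 3, at 0.478. Depth limits the statements on Derl3, whose 40 to 58 counts leave an interval that reaches 1.5-fold.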

Other observations

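Outside the list, 28 genes of the promoter table carry the ERSE letters, and 13 of them passed the low-count filter. Of the 13, 0 passed an FDR of 0.05 in edgeR, with 3 log2 fold changes above 0 and 10 below, a median of -0.13 and a range from -0.92 to 0.12.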
